A study of Mus musculus with 2 samples.

Results

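The miRNA genes examined here are Mir493, Mir337, Mir540, Mir665, Mir431, Mir433, Mir127, Mir434, Mir136 and Mir370, which lie on the plus strand of mouse chromosome 12 at the Meg3 end of the imprinted Dlk1-Dio3 region. They were chosen by gene symbol and position, not by level. Of these 10 genes, 9 were found among the 1973 miRNA genes of the count tables, and all 9 had at least 10 reads in each library. Mir136 had no entry under its own identifier and is treated separately below. The tissue was neural tube, the embryonic precursor of the central nervous system, from B6NCrl mouse embryos at 15.5 days of development. A single group of 2 libraries was sequenced, each a pool of embryos of mixed sex with no treatment or mutation on its label. Library 1 was made from 78 embryos and library 2 from 62 embryos. No comparison between conditions exists, so the data answer how strongly each miRNA gene was represented and how far the pools differed.

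In the Dlk1-Dio3 region, the protein-coding genes Dlk1, Rtl1 and Dio3 are expressed from the paternal chromosome, whereas the non-coding genes Meg3, antisense Rtl1, Rian and Mirg, with the miRNAs cut from them, are expressed from the maternal one. A miRNA is excised as a hairpin from its primary transcript and trimmed to short arms (5p and 3p), which guide repression of messenger RNAs mainly through the seed, bases 2 to 8 of the arm. miRNAs that lie antisense to Rtl1, which encodes a retrotransposon-derived protein needed in placenta and muscle, pair with its messenger RNA along their whole length and are known in mouse to direct its cleavage. The counts do not separate parental alleles or the arms of a hairpin.

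The arms antisense to Rtl1 are shown first, because they lie opposite a messenger RNA that they match base for base. Sequences are from RefSeq on GRCm38.p6, all 10 genes matched, capitals mark the seed, and each is written 5′ to 3′.
miR-431-5p: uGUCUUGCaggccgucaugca
miR-431-3p: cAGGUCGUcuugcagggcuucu
miR-433-5p: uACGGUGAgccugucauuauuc
miR-433-3p: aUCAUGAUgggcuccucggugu
miR-127-5p: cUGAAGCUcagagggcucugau
miR-127-3p: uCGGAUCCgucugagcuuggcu
miR-434-5p: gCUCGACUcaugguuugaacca
miR-434-3p: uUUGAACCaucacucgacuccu
miR-136-5p: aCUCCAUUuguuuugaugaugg
miR-136-3p: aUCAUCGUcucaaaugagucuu

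The hairpins of Mir431, Mir433, Mir127, Mir434 and Mir136 all lie opposite the coding sequence of Rtl1, which GENCODE M21 places on the minus strand at positions 109590172 to 109595403 of chromosome 12 (mm10). Each of their 10 arms had a perfectly complementary site in the Rtl1 transcript of 6358 bases, found 1 time each, and the other 10 arms of the group had 0 such sites. The site of miR-127-3p, at bases 2642 to 2663 of that transcript, is shown as the example for the most abundant gene.
Rtl1 site of miR-127-3p: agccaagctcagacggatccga
Along the plus strand, Mir431 begins at 109590447, Mir433 at 109591715, Mir127 at 109592846, Mir434 at 109594506 and Mir136 at 109595327. Mir337 (from 109585789), Mir540 (from 109586080) and Mir665 (from 109586314) lie beyond the annotated end of Rtl1, and Mir370 (109618258 to 109618336) lies on the strand of Rian, in an intron of it. Mir493, at positions 109580233 to 109580315, overlapped no other annotated gene.

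The 20 arms carried 20 distinct seeds, so no seed was shared within the group. Among all other RefSeq mouse miRNAs, a seed was shared with only 2 of the 20 arms. miR-540-3p shared its seed with miR-6915-5p, whose gene was not analysed here. miR-370-5p shared AGGUCAC with miR-1193-3p, from the distal part of the same imprinted region, and these arms are printed to show the shared seed.
miR-370-5p: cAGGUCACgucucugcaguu
miR-1193-3p: uAGGUCACccguuuuacuauc
Mir1193 had 433 CPM (library 1) and 415 CPM (library 2), where CPM is a gene's reads on its own strand, scaled by the library's total of such reads over all miRNA genes.

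The Mir434 hairpin (chr12:109594506-109594599, plus strand) had an internal repeat. The stretch of 11 bases in capitals occurred 3 times, beginning at bases 10, 34 and 58 of the hairpin, and miR-434-5p holds the whole second copy, while miR-434-3p holds part of the last.
Mir434 hairpin: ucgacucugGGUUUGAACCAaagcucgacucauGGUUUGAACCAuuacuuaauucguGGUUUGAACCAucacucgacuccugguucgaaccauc
No hairpin of the group shared 20 bases with another annotated miRNA hairpin at a different place. Reads that aligned to several places were counted in no gene, 29.4% of reads in library 1 and 29.7% in library 2. By this measure, the group is not among the genes whose reads such near-identical copies could remove.

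Together the 9 genes held 1.50% of the reads counted in miRNA genes in library 1 (63411 of 4228685; 95% Wilson interval 1.49 to 1.51) and 1.60% in library 2 (96392 of 6039889; 1.59 to 1.61), or 1.55% ± 0.0682 (SD, n = 2). Intervals here cover counting error within a library only, not variation between pools, and PCR copies were not marked. The libraries were close to each other, but the gap exceeded counting error. The 4 counted members antisense to Rtl1 made up 86.0% of the group's reads in library 1 and 85.5% in library 2.

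Mir127, known in mouse for repressing Rtl1 in the placenta, was the most abundant gene of the group. It had 31388 reads (7423 CPM) in library 1 and 46577 reads (7712 CPM) in library 2, and averaged 7567 ± 204 CPM (SD, n = 2). It alone supplied 49.5% of the group's reads in library 1 and 48.3% in library 2. Among the 363 miRNA genes with at least 10 reads in each library, it stood at rank 19 in library 1 and rank 20 in library 2.

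The other counted members antisense to Rtl1 came next in level. Mir431, known from regrowth of mouse sensory axons, had 2143 CPM (library 1) and 2243 CPM (library 2). Mir434 had 2064 CPM (library 1) and 2229 CPM (library 2). Mir431 stood above Mir434 within each library, but their ranges over the libraries overlapped, so this order was within the spread. Mir433 had 1273 CPM (library 1) and 1467 CPM (library 2), below both of them in each library. Mir127 averaged 3.45 times the level of Mir431, the next gene.

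Members outside Rtl1 were lower. Mir370, 22869 bases beyond Mir136 and the last gene of the group, had 825 CPM (library 1) and 919 CPM (library 2). Mir337 had 729 CPM (library 1) and 832 CPM (library 2). Its range over the libraries overlapped that of Mir370, but Mir370 was the higher within each library. Both were below Mir433 in each library.

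Mir540 and Mir665 lie within 200 bases of their neighbour: 194 bases separate Mir337 from Mir540 and 167 bases separate Mir540 from Mir665. Their levels were not alike. Mir540 had 304 CPM (library 1) and 324 CPM (library 2), and Mir665 had 197 CPM (library 1) and 193 CPM (library 2). Mir337 averaged 2.49 times Mir540, and Mir540 averaged 1.61 times Mir665.

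Mir493, the first gene of the group along the chromosome, was the least abundant. It had 167 reads (39.5 CPM, 95% Wilson interval 33.9 to 46.0) in library 1 and 249 reads (41.2 CPM, 36.4 to 46.7) in library 2. The next gene, Mir665, averaged 4.82 times its level. Over the group, 6 of 8 neighbouring pairs in the order of levels had ranges over the libraries that did not overlap. The exceptions were Mir431 with Mir434 and Mir370 with Mir337, whose order was the same in each library. For Mir431 and Mir434 that order was within counting error. Their 95% Wilson intervals overlapped in library 1 (2099 to 2187 against 2021 to 2107 CPM) and in library 2 (2206 to 2281 against 2191 to 2266 CPM).

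**Figure D1:**
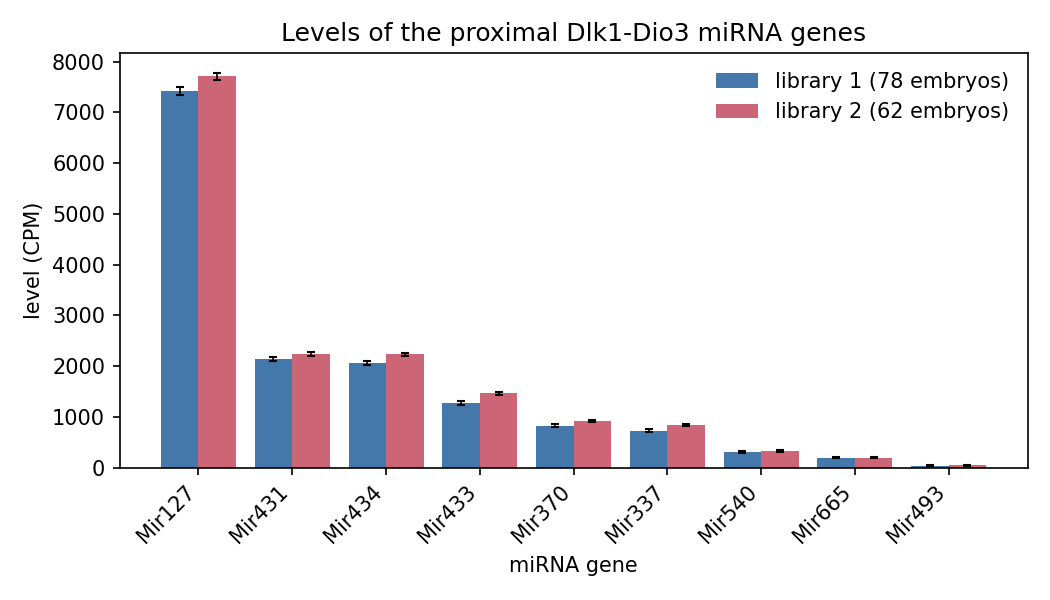
Levels of the 9 counted genes in CPM, with a bar for each library and 95% Wilson intervals for counting error. Mir127 stands at 7423 CPM (library 1) and 7712 CPM (library 2), and Mir493 at 39.5 CPM (library 1) and 41.2 CPM (library 2).

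The annotated arms of these genes are 19 to 26 bases long and the labels give a library size range below 30, so CPM values were set side by side without correction for hairpin length. Differences in ligation and amplification between sequences also enter such comparisons and were not measured here. Folded with RNAfold, the 10 hairpins had minimum free energies between -28.2 kcal/mol (Mir136) and -49.4 kcal/mol (Mir337). Mir127, the most abundant gene, had the second weakest, -35.1 kcal/mol, and its hairpin of 70 bases had 57.1% G and C. These energies were not scaled by hairpin length, which ran from 62 bases (Mir136) to 124 bases (Mir433), so their order does not rank stability per base.

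Along the chromosome the group spans 38104 bases, and the levels did not run in one direction. Mir431, Mir433, Mir127 and Mir434 lie between 1007 and 1590 bases apart inside the Rtl1 coding sequence, and held the 4 highest levels of the group. Mir337, Mir540 and Mir665 before them, and Mir370 after them, were all below 1000 CPM in both libraries.

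**Figure D2:**
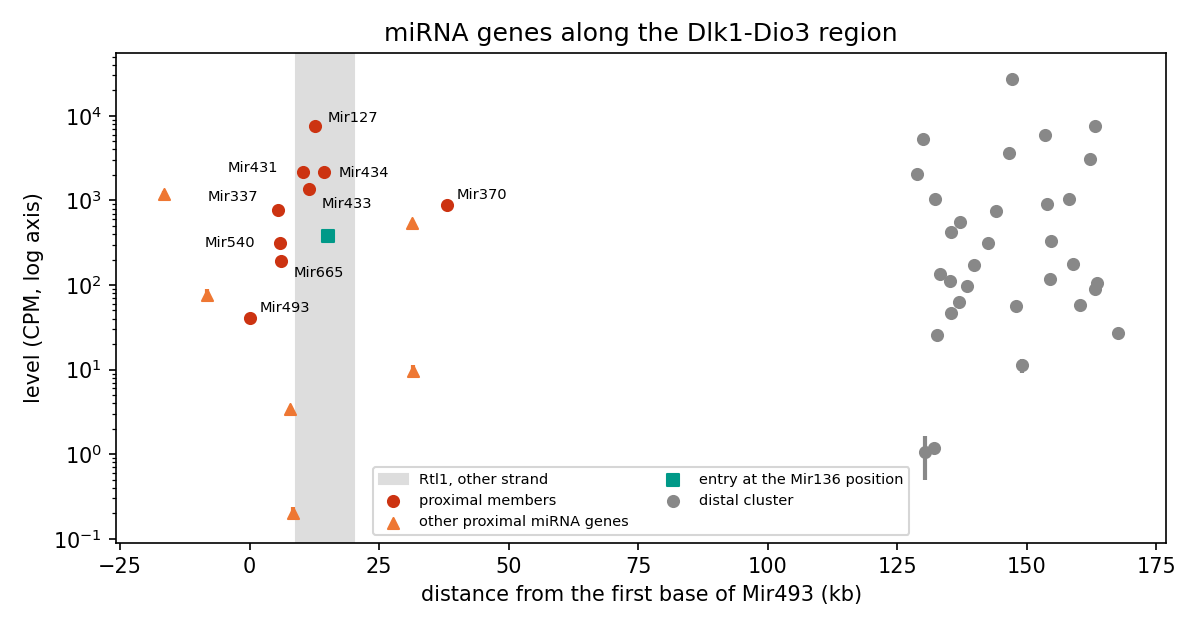
Level (CPM, log axis) of miRNA genes against distance in kb from the first base of Mir493. Points are the mean of both libraries, vertical lines join the libraries, genes with 0 reads are left out, and the grey band is Rtl1 on the other strand. The 4 counted members inside the band reach 1370 to 7567 CPM, above the 5 other members. The band also covers the entry at the Mir136 position, at 376 CPM (library 1) and 374 CPM (library 2), and Mir432, with 0 reads in both.

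Mir136, in the same Rtl1 exon, could not be given a level. GENCODE M21 annotates Mir136 on the plus strand at 109595327 to 109595388 and Mir3071 over it on the minus strand at 109595318 to 109595397. The tables, made with the older release M4, hold 1 entry there, ENSMUSG00000070129.1, an identifier that M21 gives in a later version to Mir3071. The arms below are printed to show how far both genes share positions: miR-136-5p above overlaps miR-3071-3p by 20 positions, and miR-136-3p overlaps miR-3071-5p by 19.
miR-3071-3p: aUCAUCAAaacaaauggagucc
miR-3071-5p: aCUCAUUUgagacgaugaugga

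This entry had 1591 reads (376 CPM) in library 1 and 2256 reads (374 CPM) in library 2 on the strand taken as its own, and 0 reads on the other strand in both. Another 4 entries of the region lie on the minus strand in M21, over plus-strand miRNA genes, and their reads fell almost entirely on the other strand. Gm24321, opposite Mir409, had 0 reads on its own strand in both libraries, against 14342 reads on the other strand in library 1 and 25463 in library 2. Gm25252, opposite Mir376a, had 0 reads on its own strand in both libraries, against 14010 on the other strand in library 1 and 18016 in library 2. Which strand release M4 gave to ENSMUSG00000070129.1 is not given in the sources used here, so its reads were assigned to neither Mir136 nor Mir3071. With them, the group would hold 1.59% of miRNA gene reads in place of 1.55%.

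Mir337 was the only one of the 9 counted genes with reads on the opposite strand, 5 in library 1 and 4 in library 2, against 3081 reads on its own strand in library 1 and 5027 in library 2. M21 annotates Mir3544, a gene not analysed here, on that strand at 109585813 to 109585873.

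For the genes of the group, the pools differed slightly and mostly in the same direction. TMM scaling sets the library sizes by the bulk of genes. Log2 ratios of library 1 to library 2 were below 0 for all 9 genes after it, but Mir665 turned to 0.027 with library sizes alone. With TMM, 7 of 9 were lower in library 1 by an exact binomial test (two-sided, Benjamini-Hochberg adjusted p below 0.05 over the 363 genes). Over all 363 genes, 24.2% were called lower in library 1 and 49.9% in either direction. Calls depend on depth. Among the 196 genes of at least 100 CPM, 70.4% were called in either direction and 36.2% as lower in library 1, and 7 of the 8 group members at that level were. The group's median log2 ratio was -0.12, beside -0.0036 over all 363 genes. The test compares these libraries at counting error and says nothing on conditions. The labels call the pools biological replicates.

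Among the called genes the difference was largest for Mir433 (log2 ratio -0.24, 95% exact counting interval -0.29 to -0.19, adjusted p = 2.99e-21) and Mir337 (-0.23, -0.29 to -0.16, adjusted p = 2.53e-11). Mir433 was 1.18 times as high in library 2 as in library 1. Mir370 stood at -0.19 and Mir434 at -0.14. Mir127, though the most deeply counted, had -0.09 (-0.11 to -0.07, adjusted p = 1.42e-16), and its counting interval did not overlap that of Mir433. Mir431 had -0.10.

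The less abundant genes were not all called. Mir540 stood at -0.12 (adjusted p = 0.0393) and lost the call with library sizes alone (adjusted p = 0.159) and with no filter on low counts (adjusted p = 0.0725). Mir665 had -0.0069 (-0.14 to 0.12, adjusted p = 0.970), and Mir493 -0.10 (-0.39 to 0.19, adjusted p = 0.660). For Mir493, with 167 reads in library 1 and 249 in library 2, a difference of the size seen in Mir433 was not detectable at this depth. edgeR's exact test also takes in a coefficient of variation between the pools, here 34.4% from these same libraries over all genes. With it, 0 of the 9 genes were called, and 0 had an unadjusted p below 0.05. Over all 363 genes it called 8. At that variation and a single library on each side, ratios as small as the group's could not be called at any depth. The edgeR outcome therefore cannot decide whether the members differed.

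**Figure D3:**
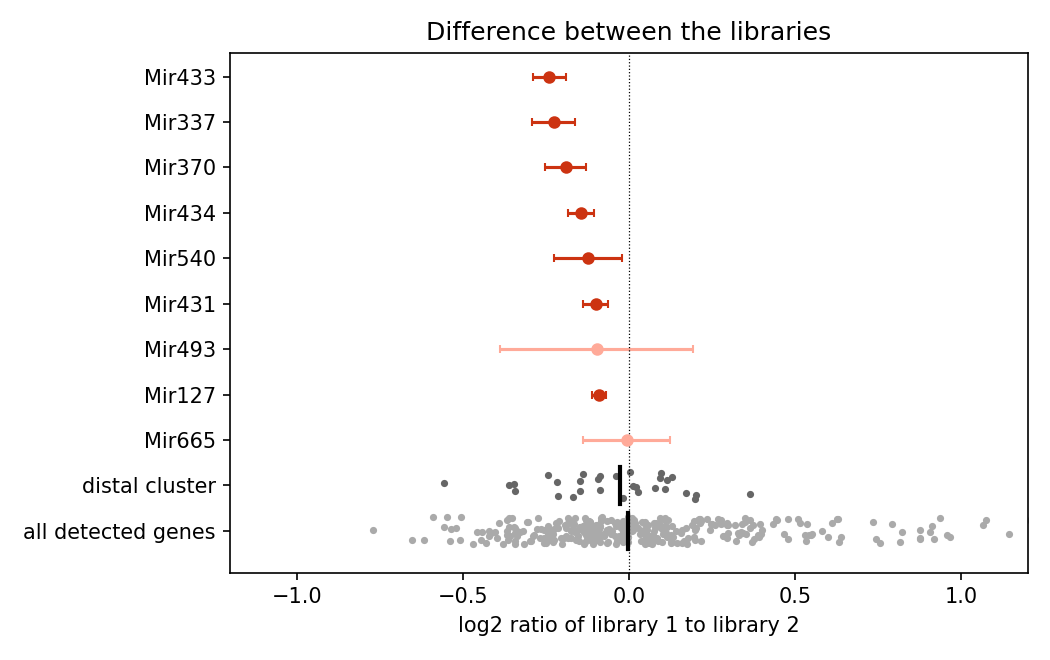
Log2 ratio of library 1 to library 2 for each member with 95% exact counting intervals (dark where the adjusted p is below 0.05), and as points for the 30 detected genes of the distal cluster and all 363 detected genes, with a bar at the median. All 9 members lie below 0 with TMM scaling, Mir665 turning to 0.027 with library sizes alone, and 20 of the 363 genes lie beyond the axis limits of 1.2.

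The other miRNA genes of the same stretch gave a mixed picture. Mir770, in the Meg3 gene, had 1081 CPM (library 1) and 1280 CPM (library 2), and its log2 ratio of -0.28 was below that of every group member. Mir673 had 63.1 CPM (library 1) and 89.4 CPM (library 2), and its log2 ratio of -0.54 was lower still (exact binomial test, adjusted p = 1.47e-06). Mir341 went the other way, with 569 CPM (library 1) and 520 CPM (library 2), or 0.10 on the log2 scale (exact binomial test, adjusted p = 0.0305). Mir1188 had 34 reads in library 1 and 68 in library 2, which was not called (adjusted p = 0.153). Mir3070a had 14 reads in library 1 and 21 in library 2, Mir3070b 1 read in each library, and these share 20 bases with another hairpin. Mir432, between Mir434 and Mir136 and also antisense to the Rtl1 coding sequence, had 0 reads in both libraries. This allows up to 0.709 CPM (library 1) and 0.497 CPM (library 2).

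The distal cluster of the region, from Mir882 to Mir3072, held more reads than the group, over more genes. Of 40 named genes 35 were analysed. These held 5.78% of miRNA gene reads in library 1 and 6.48% in library 2. Mir487b, whose hairpin shares 20 bases with another, carried much of this. Without its reads the list held 3.38% of the same total in library 1 and 3.46% in library 2. With all genes sharing such a stretch removed from both the list and the total, the mean share was 3.10% in place of 6.13%. The 35 genes ranged in mean level from 0 to 27078 CPM with a median of 136 CPM, beside 872 CPM in the group. The 5 most abundant of the 35 averaged 27078 CPM (Mir487b), 7664 CPM (Mir369), 5910 CPM (Mir382), 5293 CPM (Mir411) and 3598 CPM (Mir381). Mir127 would stand just below Mir369 in that order of means. The libraries differed on this, with Mir127 above Mir369 in library 1 (7423 against 7384 CPM) and below it in library 2 (7712 against 7943 CPM). Mir409, Mir376a, Mir376b, Mir380 and Mir299a have no values of their own here, and the order leaves them out. Reads on the strand opposite Gm24321, at the Mir409 position, numbered 14342 in library 1 and 25463 in library 2. Mir381 had 15466 reads in library 1 and 21378 in library 2. Such opposite-strand reads are in neither the order nor the distal shares. Of the 30 distal genes with at least 10 reads in each library, 10 were lower in library 1, 4 were higher and 16 were not called, with a median log2 ratio of -0.03. Over all 363 genes 49.9% were called, so the distal share called was near that of all genes. The difference between both clusters was not tested. Mir411 also shares 20 bases with another hairpin, so its level, like that of Mir487b, is less certain.

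Outside the region, the genes nearest to Mir127 in level, by distance in log2(CPM + 1) over the 2 libraries, were Mir30a (distance 0.033), Mir137 (0.19) and Mirlet7b (0.20). Mir30a had 7305 CPM (library 1) and 7836 CPM (library 2), and Mir137, a neuronal miRNA, had 6615 CPM (library 1) and 7220 CPM (library 2). A likeness over 2 libraries describes level only.

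Marker lists were summed to set the tissue makeup of the pools beside the group. Of all 363 genes, 49.9% were called in either direction. The neuron-enriched list (9 genes, 6 detected) summed to 10795 CPM (library 1) and 11449 CPM (library 2). Of its detected members, 3 were lower in library 1, 0 were higher and 3 were not called. All 6 had at least 100 CPM. Among the 196 genes at that level, 70.4% were called in either direction and 36.2% as lower in library 1. A difference between the list and those genes was not tested. The 3 undetected members of this list are the Mir124a copies, which share 20 bases with another hairpin and were not at 0. The progenitor list (2 of 3 analysed genes detected, 1 called as lower in library 1) summed to 2071 CPM (library 1) and 2353 CPM (library 2). Another Mir9 copy named in it was not analysed, so that sum rests almost wholly on Mir9-3 and Mir92b. The oligodendrocyte list (3 of 3 detected, 1 called as lower) summed to 2095 CPM (library 1) and 2328 CPM (library 2). The epithelial list (7 of 7 detected, all 7 called as higher in library 1) summed to 5458 CPM (library 1) and 631 CPM (library 2), and the mesenchyme and smooth muscle list (6 of 7, with 5 called as higher and 1 as lower) to 22420 CPM (library 1) and 7594 CPM (library 2). The leukocyte list (3 of 3 detected, 2 called as higher in library 1) summed to 433 CPM (library 1) and 237 CPM (library 2). The endothelial gene Mir126a, called as higher in library 1, had 22011 CPM (library 1) and 19666 CPM (library 2), the erythroid list (3 of 3 detected, 1 called as higher) summed to 202 CPM (library 1) and 183 CPM (library 2), and the liver gene Mir122, not called, had 66.0 CPM (library 1) and 56.3 CPM (library 2). Striated muscle (4 of 7 detected, 1 called as lower in library 1, Mir133a-1 and Mir133a-2 at 0) summed to 307 CPM (library 1) and 382 CPM (library 2). A Mir1a copy named in that list, and Mir142 of the leukocyte list, were not among the analysed genes. The part of tissue makeup in the lower level of the group in library 1 was not tested, and in bulk tissue fewer cells of a type and less RNA per cell cannot be told apart.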

How the data were processed

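Small RNA, with a size range below 30 per the labels, was sequenced from 2 neural tube pools. The authors deposited raw read counts per miRNA gene on mm10 with annotation release GENCODE M4, per the README texts with the samples; no aligner or counter is given in the sources used here. Each table gives counts on both strands together and on each strand, and the sense strand is the one with the larger total. The 4 entries naming no gene held 45.7% of 7925935 reads in library 1 and 47.7% of 11738914 in library 2; library sizes exclude them. Symbols and positions came from GENCODE M21 (same assembly), which matched 1894 of 1973 identifiers without version; the versions of Mir337, Mir540 and Mir127 differ, so their counted interval in M4 may differ from the one printed. Mir3070-1 and Mir3070-2 are Mir3070a and Mir3070b there.

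CPM used sense counts (4228685 and 6039889). Genes with at least 10 reads in each library were compared by an exact binomial test against TMM effective sizes (edgeR 4.0.16, R 4.3.3), Benjamini-Hochberg threshold 0.05. The binomial test was tried on simulated counts with sampling noise only, which could not check it against variation between pools. Alternatives were DESeq2 1.42.0 size factors, library sizes alone, other filters, unstranded counts, thinning, leaving out a library, and edgeR's exact test. Shared hairpin sequence meant 20 bases. Python 3.11.15, scipy 1.17.1 and RNAfold 2.7.2 were used. A count of 0 allows up to 3 reads. The genes and lists were chosen with earlier results of these data known. Genes named are all members, the other miRNA genes of the stretch, the 5 most abundant distal genes, seed sharers, and the 3 genes nearest Mir127 in level; Gm24321 and Gm25252 were added after their values were seen.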

Additional observations from a re-analysis of the deposited data

Results flagged for a closer look

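Mir337 had 5 reads in library 1 and 4 reads in library 2 on the strand opposite to it, outside the main measurement and above the limit of 3 reads that a count of 0 allows. There are no control samples to set these reads against. With 1 group of 2 libraries, neither a test for samples that stand apart nor a comparison of groups was run.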

How the results depend on the processing

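The 9 genes held 1.55% of miRNA gene reads, 1.50% to 1.60% with either library left out, 1.68% when genes sharing 20 bases with another hairpin were removed from the total, and 0.811% of all reads in the tables. The distal share of 6.13% was 5.78% to 6.48% with either library left out and 3.10% without such genes. The count of 7 called members was 6 or 7 under every alternative with the binomial test. It was 0 with edgeR's exact test, whose variation between the pools leaves ratios this small uncalled at any depth. That test also called 0 distal genes against 14 and 8 of all genes against 181. Library sizes alone split all calls into 103 higher and 68 lower in library 1, against 93 and 88 with TMM. The sign turned for Mir665 with library sizes alone (log2 ratio 0.027) and with library 2 thinned to the depth of library 1 (0.0047), and for Mir493 with thinning (0.060); none of these was called. The cause was not tested. Leaving out a library ends the comparison of libraries, so no such value exists for calls. Depth limits Mir493 most. No paired analysis was possible because there is a single group.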
